A study of Mus musculus with 4 samples.

Results

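Pancreatic acinar digestive enzyme genes encode the proteins that the exocrine pancreas secretes into the gut, and they were followed here in RNA from lymphocytes of the lamina propria, the connective tissue beneath the gut epithelium. The 10 genes were Pnlip, Prss1, Cela1, Cela2a, Cela3b, Cpa1, Cpb1, Ctrb1, Clps and Pnliprp1, out of 20659 genes named on the arrays. They were chosen by name, as every non-control probe whose RefSeq accession belongs to a gene of the set, which gave 12 of 39429 probes. Earlier results of the same arrays were known when the set was chosen, so its values are given as a description.

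All mice were C57BL6 and had been given dextran sulfate sodium (DSS), which damages the epithelium of the colon and produces colitis, and cells were collected on day 10. The 4 groups were mice labelled Stat4-/- given DSS and LIF, mice labelled Stat4-/- given DSS, wild type mice given DSS and LIF, and wild type mice given DSS. LIF (leukemia inhibitory factor) is a cytokine of the interleukin-6 family, and Stat4 encodes a transcription factor of T and NK cells. Each group had 5 mice and 1 array, and pooling of the mice is not stated in the labels. The 4 arrays are called labelled KO DSS+LIF, labelled KO DSS, WT DSS+LIF and WT DSS here. The comparisons ask how LIF changed gene expression in each genotype and how the genotypes differed under each treatment.

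Acinar cells store these enzymes as inactive precursors in zymogen granules and release them into the pancreatic duct, and trypsin activates the other proteases in the intestine. Their transcripts are very abundant in the pancreas. Acinar enzyme genes are driven by PTF1, a complex of PTF1A, an E protein and RBPJL, which binds a bipartite DNA element made of an E-box (CANNTG) and a TC-box (TTTCCC). In bulk RNA, fewer cells of a type and less RNA per cell cannot be told apart.

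The PTF1-like element is the sequence feature that part of the set shares, so promoters with and without it are shown. They are the 250 bases before the annotated RefSeq start (build GRCm38.p6), 5′ to 3′ on the gene's strand. Capitals mark the composite motif (CANNTG, any 4 bases, then TTTCCC) on either strand and, nearer the start, a TATAAA box; Ctrb1 has no TATAAA here and Pnlip no composite motif. Cela1 is at chr15:100687921-100688170 on the minus strand, Ctrb1 at chr8:111691011-111691260 on the minus strand, Prss1 at chr6:41458680-41458929 on the plus strand and Pnlip at chr19:58670115-58670364 on the plus strand.
Cela1: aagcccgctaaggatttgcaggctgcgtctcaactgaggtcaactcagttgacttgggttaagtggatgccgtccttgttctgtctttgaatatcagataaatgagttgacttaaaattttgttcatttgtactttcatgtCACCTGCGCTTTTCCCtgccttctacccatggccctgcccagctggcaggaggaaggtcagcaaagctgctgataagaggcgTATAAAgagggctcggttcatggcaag
Ctrb1: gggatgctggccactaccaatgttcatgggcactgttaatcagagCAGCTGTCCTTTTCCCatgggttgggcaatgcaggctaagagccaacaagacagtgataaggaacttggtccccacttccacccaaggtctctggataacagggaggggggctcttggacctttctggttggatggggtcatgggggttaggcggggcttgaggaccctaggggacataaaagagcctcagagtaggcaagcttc
Prss1: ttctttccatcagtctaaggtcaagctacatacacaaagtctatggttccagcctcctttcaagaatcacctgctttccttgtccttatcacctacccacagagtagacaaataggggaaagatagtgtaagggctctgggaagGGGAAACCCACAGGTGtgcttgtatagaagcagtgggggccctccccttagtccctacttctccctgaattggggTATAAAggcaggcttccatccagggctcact
Pnlip: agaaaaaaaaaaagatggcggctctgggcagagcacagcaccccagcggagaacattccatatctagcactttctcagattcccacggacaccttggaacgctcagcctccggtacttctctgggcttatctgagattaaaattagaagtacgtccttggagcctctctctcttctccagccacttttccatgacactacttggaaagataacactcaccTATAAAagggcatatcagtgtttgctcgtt

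The composite motif started 109 bases upstream of Cela1 and 205 bases upstream of Ctrb1, both in the gene's direction, and its match to the opposite strand began 106 bases upstream of Prss1. Of the 9 genes with an entry in the promoter table these 3 held it, and it was found in 31 of 32851 promoters of the same length (0.0944%). The 4-base spacing was chosen after the promoters had been read. The motif contains TTTCCC, which alone was in 5 of the 9 and in 25.2% of all promoters. CACCTG, the E-box inside the match of Cela1 and of Prss1, was also in 5 of the 9 and in 20.2% of all promoters. TATAAA stood in 4 of the 9 promoters and in 13.6% of all. In Cpb1 it began 35 bases past the start, and in Cela1, Pnlip and Prss1 it lay upstream. All searches covered both strands of the 300-base window, which reaches 50 bases past the start. A match is a string in the sequence and does not show binding. The 10 genes lie on 7 chromosomes. Pnlip and Pnliprp1 are neighbours on chromosome 19, and Prss1 lies beside Gm10334 and Prss2 on chromosome 6.

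The arrays differed in brightness and in the number of probes detected. Levels are log2 processed signals minus the array's 75th percentile, and a probe was detected when the scanner software marked it well above background. The 75th percentile ran from 23.8 (WT DSS+LIF) to 122.9 (WT DSS), and detected probes ran from 37.6% to 61.7% in the same arrays. WT DSS+LIF stood apart, with correlations of 0.800 to 0.818 with the other arrays over 12674 probes, against 0.951 to 0.980 among the other 3. The Stat4 probe did not separate the genotypes by their labels. Its level was −0.48 in labelled KO DSS+LIF, 0.31 in labelled KO DSS, 0.21 in WT DSS+LIF and −0.49 in WT DSS, so each genotype direction rests on the labels. Where the probe lies relative to the deleted part is not known here, so it checks nothing. Labelled KO DSS and WT DSS were read in a single scan and the other arrays in a scan each, so scan and LIF cannot be told apart. Between the DSS+LIF arrays, scan and genotype cannot be told apart either. Of 15 leukocyte markers with a probe, 13 were detected in labelled KO DSS+LIF, 14 in labelled KO DSS, 12 in WT DSS+LIF and 15 in WT DSS. Ptprc, the pan-leukocyte gene for CD45, was not well above background in WT DSS+LIF.

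Transcripts of acinar enzymes were detected in every group. Of the 10 genes, 9 were detected in labelled KO DSS+LIF, 6 in labelled KO DSS, 5 in WT DSS+LIF and 10 in WT DSS. Of all probes, 45.7%, 44.9%, 37.6% and 61.7% were detected on those arrays in the same order. Only Pnlip, Cpa1, Cpb1, Ctrb1 and Clps were detected on all 4 arrays, and Cela3b was detected in WT DSS alone. The number detected and the scaled level gave different orders: WT DSS, the brightest array, had the most genes detected and not the highest levels. Summed over the set, the scaled signal (the multiple of the array's 75th percentile) was 178.6 in labelled KO DSS+LIF, 63.4 in labelled KO DSS, 27.3 in WT DSS+LIF and 42.7 in WT DSS.

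**Figure D1:**
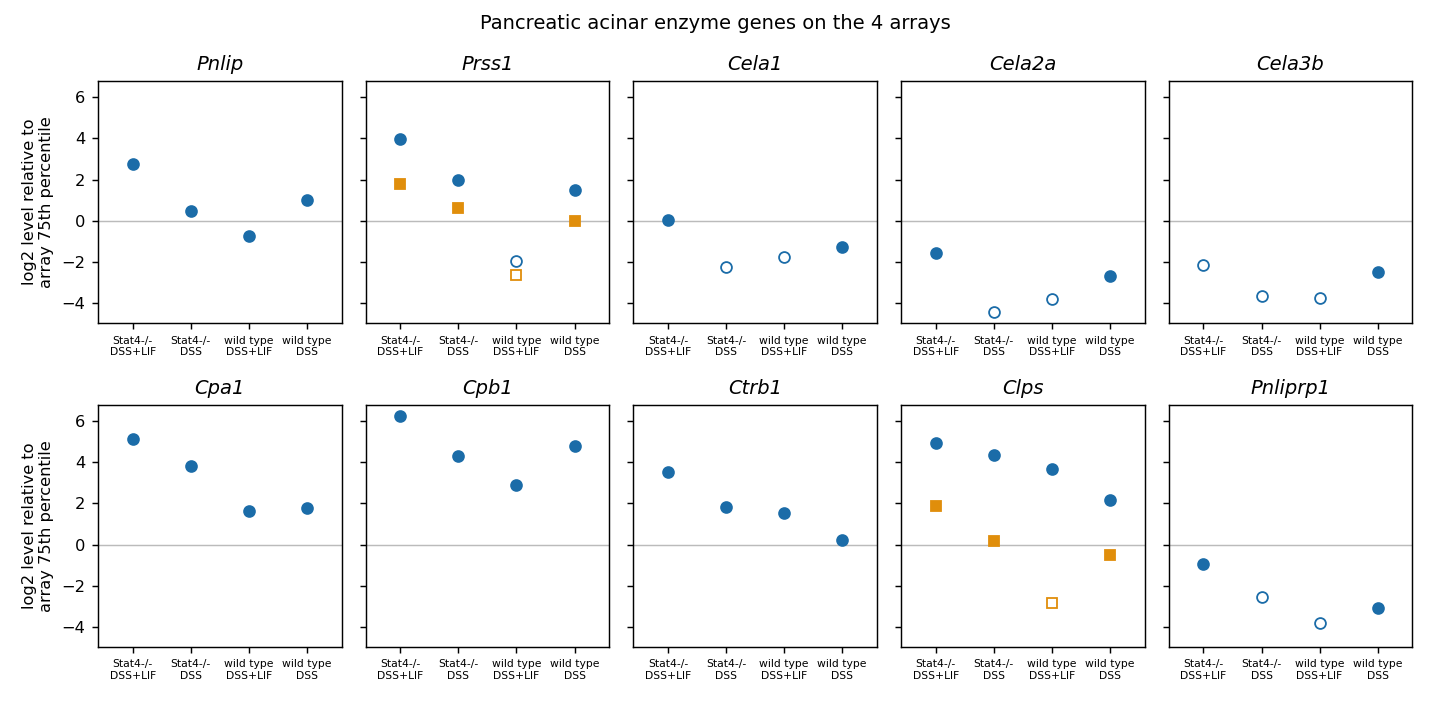
Level of each enzyme gene (log2 signal relative to the array's 75th percentile, vertical axis) on the 4 arrays (horizontal axis, 1 array per group). Blue circles are the brightest probe, orange squares a further probe, filled when well above background and open when not; labelled KO DSS+LIF is the highest array for the brightest probes of the 9 genes detected on it.

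Among the fat-digesting proteins, Pnlip encodes pancreatic triglyceride lipase, the main enzyme of dietary fat hydrolysis. Its level was 2.75 in labelled KO DSS+LIF, 0.49 in labelled KO DSS, −0.74 in WT DSS+LIF and 0.99 in WT DSS. Labelled KO DSS+LIF was the high array and WT DSS+LIF the low one. Clps encodes colipase, the cofactor that anchors this lipase to fat droplets. The brighter of its probes read 4.95 in labelled KO DSS+LIF, 4.33 in labelled KO DSS, 3.65 in WT DSS+LIF and 2.18 in WT DSS, so its low array was WT DSS. Its weaker probe read 1.88 in labelled KO DSS+LIF, 0.15 in labelled KO DSS, −2.85 in WT DSS+LIF, where it was not well above background, and −0.53 in WT DSS. The probes of Clps thus disagreed on WT DSS+LIF. Pnliprp1, which encodes a lipase-related protein, read −0.94 in labelled KO DSS+LIF and −3.10 in WT DSS, and was not well above background at −2.54 in labelled KO DSS and −3.80 in WT DSS+LIF.

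Among the serine proteases, Prss1 encodes a trypsinogen. Its brighter probe read 3.96 in labelled KO DSS+LIF, 2.00 in labelled KO DSS, −1.93 in WT DSS+LIF and 1.48 in WT DSS, and its weaker probe read 1.77, 0.61, −2.64 and −0.02 on those arrays in the same order. Both probes were below the background mark in WT DSS+LIF alone. Trypsinogen, elastase 3 and amylase genes are close copies, so the level assigned to a single copy is uncertain. Ctrb1 encodes chymotrypsinogen B, and its level was 3.53 in labelled KO DSS+LIF, 1.84 in labelled KO DSS, 1.51 in WT DSS+LIF and 0.23 in WT DSS. It shared its lowest array, WT DSS, with the brighter probe of Clps.

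The elastase genes, like Pnliprp1, were not well above background on 2 or more arrays each. Cela1 read 0.06 in labelled KO DSS+LIF, −2.22 in labelled KO DSS, −1.73 in WT DSS+LIF and −1.29 in WT DSS, and was detected in the first and the last of these. Cela2a was detected on those same arrays, at −1.58 in labelled KO DSS+LIF and −2.67 in WT DSS, and not at −4.42 in labelled KO DSS or −3.81 in WT DSS+LIF. Cela3b read −2.12 in labelled KO DSS+LIF, −3.67 in labelled KO DSS, −3.77 in WT DSS+LIF and −2.47 in WT DSS. It passed the background mark in WT DSS only, although its scaled level was a little higher in labelled KO DSS+LIF.

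The carboxypeptidase genes encode enzymes that trim amino acids from the ends of peptides. Cpa1 (carboxypeptidase A1) read 5.14 in labelled KO DSS+LIF, 3.83 in labelled KO DSS, 1.65 in WT DSS+LIF and 1.76 in WT DSS, so the labelled KO arrays lay above both WT arrays. Cpb1 (carboxypeptidase B) read 6.25 in labelled KO DSS+LIF, 4.28 in labelled KO DSS, 2.88 in WT DSS+LIF and 4.81 in WT DSS. Here WT DSS lay above labelled KO DSS. The software's own error of these signals, over the 30 detected readings of the brightest probes, was 10.0% to 18.3% of the signal (median 10.0%). It covers error within an array, not between mice.

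Each group is a single array, so differences lack a replicate check and were not tested. Differences are of log2 levels, and a gene is counted when it differed at least 2-fold between arrays on both of which its brightest probe was detected. The median SD of a log2 difference over replicate spots of a probe was 0.099 to 0.111 across the 4 comparisons, an error within arrays only. A gene detected on a single array of a pair is given as a bound, against the higher of the other array's dimmest detected level and the gene's own level there.

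In the labelled KO, the enzyme genes read higher on the array with LIF than on the array without it. Of the 6 genes measured on both arrays 5 were higher by at least 2-fold and 0 lower by that much, where 3.22% of the 9781 measured genes were higher and 3.07% lower. Pnlip was 4.79-fold, Cpb1 3.92-fold, Prss1 3.88-fold, Ctrb1 3.22-fold and Cpa1 2.48-fold higher in labelled KO DSS+LIF than in labelled KO DSS. Clps was 1.54-fold higher by its brighter probe and 3.32-fold by its weaker one. The median log2 difference of the 6 was 1.82, against −0.01 for all measured genes. The bounds were at least 4.55-fold for Cela1, 2.27-fold for Pnliprp1 and 1.46-fold for Cela2a, all higher, and Cela3b was below the background mark on both arrays.

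The counted differences of LIF in the labelled KO depended on the background correction. With normexp, a model-based correction, and an offset of 50, 0 of the 6 genes were at least 2-fold higher (median 0.74, against −0.12 for all genes), and without an offset again 0 of 6 (median 0.42, against −0.29). The brighter probe of Clps then differed by −0.30 with the offset and −0.78 without it. Among all genes 6 were higher and 868 lower by at least 2-fold with the offset, and 431 and 2364 without it, in place of 315 and 300. The 75th percentile used for scaling then stood at a log2 ratio of 0.91 or 1.42 between these arrays, in place of −0.06. With normexp (offset 50) and quantile scaling, 5 of 6 were at least 2-fold higher (median 1.31), where 0.511% of all genes were.

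**Figure D2:**
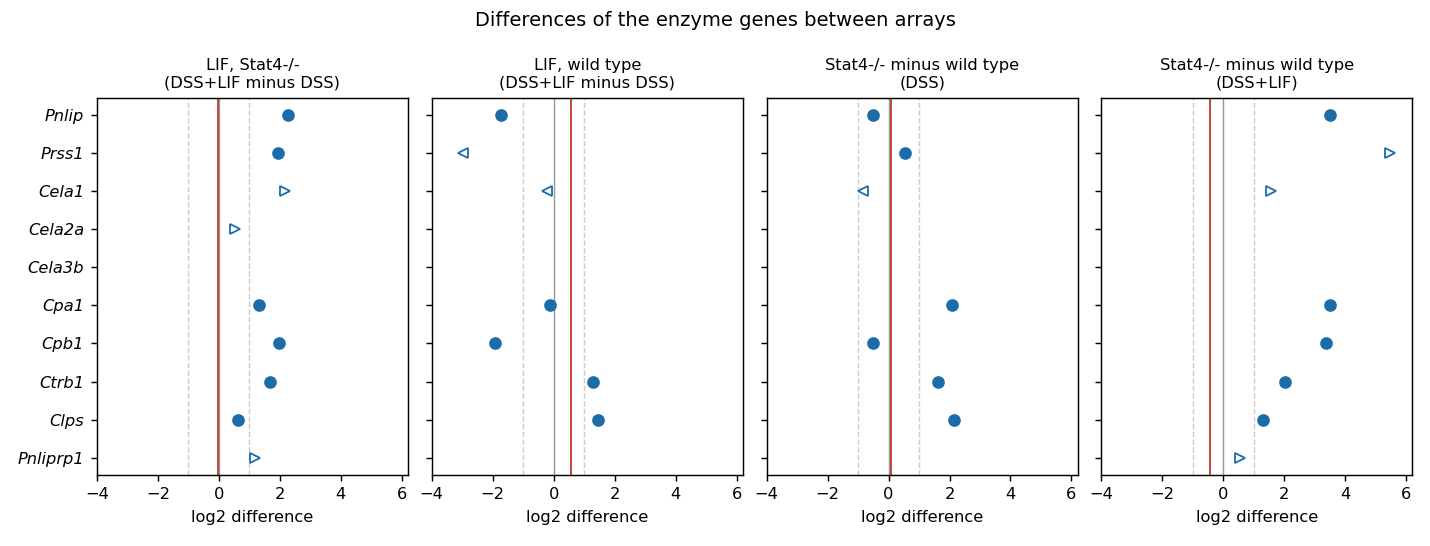
Log2 difference of each enzyme gene (rows) in the 4 comparisons (panels). Filled circles are genes detected on both arrays, open triangles are bounds pointing away from the dim array, the red line is the median of all measured genes and dashed lines mark a 2-fold difference. In the LIF comparison of the labelled KO and in the DSS+LIF comparison of the genotypes, each gene with a value lies right of 0.

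In wild type mice the same genes split with LIF. Of 5 measured genes 2 were at least 2-fold higher, Clps (2.76-fold) and Ctrb1 (2.42-fold), where 34.4% of 8983 genes were. A further 2 were at least 2-fold lower, Cpb1 (3.80-fold) and Pnlip (3.33-fold), where 13.7% of all genes were. Cpa1 differed by −0.12 on the log2 scale. Prss1 was at least 7.83-fold lower and Cela1 at least 1.15-fold lower in WT DSS+LIF than in WT DSS. The weaker probe of Clps went the other way, at least 1.95-fold lower, and the mean over the probes of Clps was −0.43. The median of the 5 genes was −0.12, against 0.57 for all measured genes, and with either normexp setting 0 of them were at least 2-fold higher. Among all genes 795 were then higher and 1538 lower with an offset of 50, and 2400 and 1317 without it, in place of 3093 and 1229. This comparison uses the array that stood apart.

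The LIF differences of 3 enzyme genes had opposite signs in the genotypes. Taken as the LIF difference in labelled KO minus that in wild type, the value was 3.99 for Pnlip, 3.90 for Cpb1 and 1.43 for Cpa1. It was 0.41 for Ctrb1 and −0.85 for Clps, which were higher with LIF in both by their brightest probes. Of the 5 genes 3 had a value of at least 1, as had 16.7% of the 8039 genes measured on all 4 arrays, whose median was −0.53. With normexp without an offset the LIF difference of Cpa1 was −0.18 in labelled KO and −0.50 in wild type, the same sign, and 2 of the 5 genes had a value of at least 1. With either normexp setting, and with the mean over probes, the LIF differences of Clps had opposite signs. These differences were not tested.

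Under DSS, some enzyme transcripts read higher on the labelled KO array than on the wild type array. Of 6 measured genes 3 were at least 2-fold higher, Clps (4.44-fold), Cpa1 (4.19-fold) and Ctrb1 (3.04-fold), and 0 were lower, where 13.2% of 10529 genes were higher by that much and 6.94% lower. Prss1 was 1.44-fold higher, and Cpb1 and Pnlip were 1.43-fold and 1.42-fold lower. Cela1, detected in wild type alone, was at least 1.79-fold lower. The weaker probe of Clps gave a log2 difference of 0.68, against 2.15 for the brighter. The median was 1.07, against 0.07 for all genes. It was 0.50 with normexp (offset 50), against 0.01 for all genes, and 0.01 with no background filter, against 0.25. Among all genes 329 were higher and 819 lower by at least 2-fold with normexp (offset 50), in place of 1386 and 731.

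Under DSS and LIF, each measured enzyme gene was higher in the labelled KO. All 5 were at least 2-fold higher, where 14.2% of 8348 genes were and 31.3% were lower, and the median was 3.38, against −0.45 for all genes. Cpa1 was 11.3-fold, Pnlip 11.2-fold, Cpb1 10.4-fold, Ctrb1 4.05-fold and Clps 2.47-fold higher. Prss1 was at least 43.7-fold higher by its brighter probe and at least 9.57-fold by its weaker one. Cela1 was at least 2.93-fold and Pnliprp1 at least 1.46-fold higher. Cela2a allowed no fold, and Cela3b was below the background mark on both arrays. With normexp and no offset 3 of 5 were at least 2-fold higher, and among all genes 455 were higher and 2842 lower in place of 1182 and 2612. This comparison shares its arrays with both LIF comparisons, and its wild type array is the one that stood apart. Its arrays were read in different scans, so scan and genotype cannot be told apart in it.

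Other genes listed as acinar were followed on the same arrays. Of 38 listed genes 34 had a probe, and they covered further enzymes, granule proteins, Reg proteins and transcription factors. With LIF in the labelled KO, at least 2-fold differences were seen in 15 of 25 measured genes, 14 of them upward, and the median was 1.09, where 3.22% of all measured genes were higher and 3.07% lower and the median was −0.01. Pdia2, a pancreatic protein disulfide isomerase gene, was 4.52-fold, the trypsinogen gene Prss2 3.20-fold, the granule membrane gene Gp2 2.96-fold and the amylase gene Amy2a5 2.93-fold higher. Cela3a was 2.84-fold and the pancreatic ribonuclease gene Rnase1 2.76-fold higher. Cel, which encodes bile salt-activated lipase, was the exception at 2.04-fold lower. In wild type, 13 of 22 measured genes were at least 2-fold lower with LIF and 6 higher (median −1.46), where 13.7% of all genes were lower and 34.4% higher (median 0.57).

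**Figure D3:**
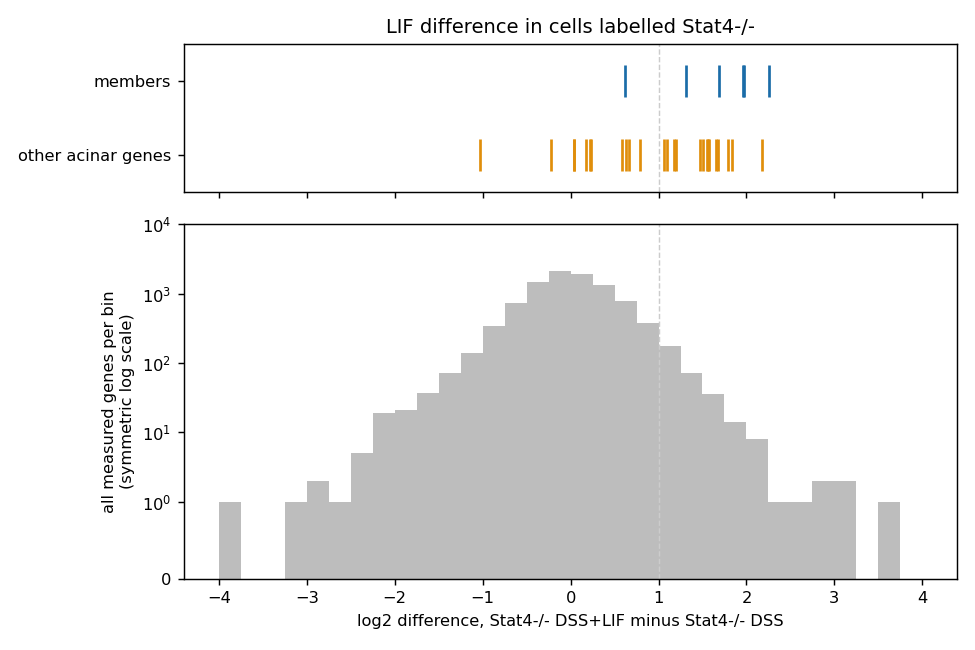
LIF difference in cells labelled Stat4-/- (log2, horizontal axis, labelled KO DSS+LIF minus labelled KO DSS). The upper panel has a tick for each measured enzyme gene (6) and each other measured acinar gene (25), and the lower panel counts all 9781 measured genes per bin of 0.25. The dashed line marks a 2-fold increase, with 5 enzyme genes and 14 other acinar genes to its right.

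The other acinar genes also split in wild type. Amy2a5 read 8.20 in labelled KO DSS+LIF, 6.65 in labelled KO DSS, 4.95 in WT DSS+LIF and 6.54 in WT DSS, so its high and its low array were those of Cpb1. Amy1, the salivary-type amylase gene, was 1.65 higher with LIF in the labelled KO and differed by −1.49 in wild type. The trypsinogen genes Try4 and Try5 were 1.83 and 1.79 higher on the log2 scale with LIF in the labelled KO, and differed by −1.42 and −1.52 in wild type. Spink1, a trypsin inhibitor gene, read 5.49 in labelled KO DSS+LIF, 4.32 in labelled KO DSS, 7.58 in WT DSS+LIF and 4.44 in WT DSS, so its high array was WT DSS+LIF. The granule genes Sycn and Zg16 and the mucosal glycoprotein gene Dmbt1 were likewise higher with LIF in wild type, by 2.96, 2.74 and 2.11 on the log2 scale. Zg16 and Dmbt1 are also expressed by gut epithelium, and the goblet cell genes Clca1 and Tff3 were high in WT DSS+LIF. Clca1 read 0.49 in labelled KO DSS+LIF, 0.90 in labelled KO DSS, 3.99 in WT DSS+LIF and −0.76 in WT DSS. Tff3 read 3.65 in labelled KO DSS+LIF, 4.16 in labelled KO DSS, 6.17 in WT DSS+LIF and 2.98 in WT DSS. Of 12 measured genes of the intestinal epithelial list, 4 were at least 2-fold higher with LIF in wild type and 2 lower. Among all genes 34.4% were higher and 13.7% lower. The lower ones of the list were Epcam (−0.42 in WT DSS+LIF, 2.22 in WT DSS) and Krt8 (−0.40 and 1.15). The source of these transcripts was not tested. The Reg genes, which encode secreted lectin-like proteins, had LIF differences of 1.06 (Reg1), 0.79 (Reg2) and 0.63 (Reg3d) in labelled KO and of −2.44, −2.79 and −1.85 in wild type. The kallikrein gene Klk1 differed by 1.20 in labelled KO and −1.43 in wild type. Reg1, Reg2, Reg3d and Klk1 thus had opposite signs in the genotypes. These wild type values all rest on WT DSS+LIF. Of the 21 acinar genes outside the set that were measured on all 4 arrays, 13 were higher with LIF in the labelled KO and lower in wild type, as were 3 of the 5 enzyme genes and 1410 of all 8039 genes.

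**Figure D4:**
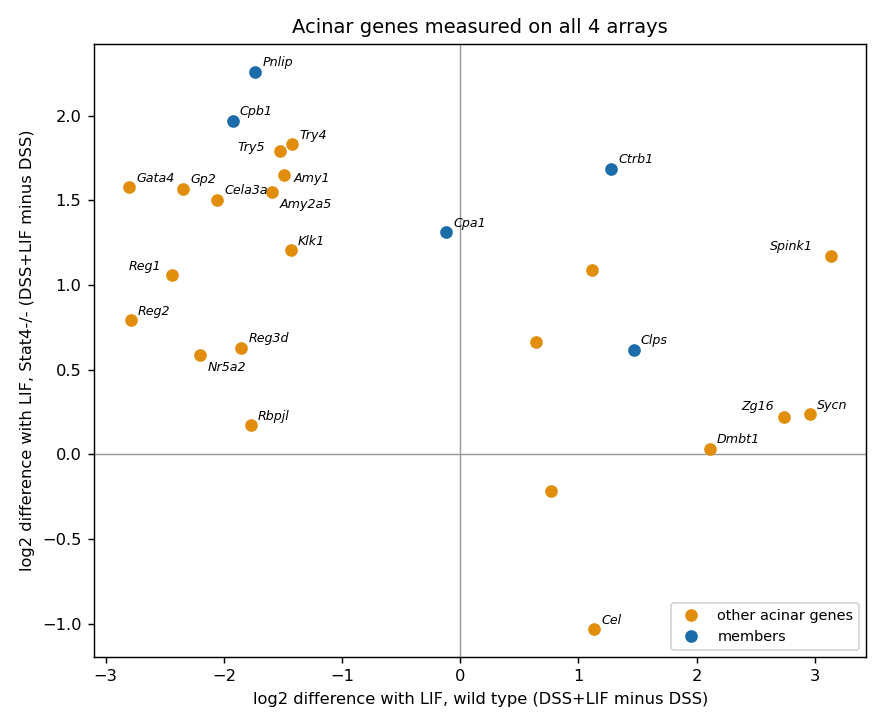
LIF difference in wild type (horizontal axis, log2) against that in labelled KO (vertical axis, log2) for acinar genes measured on all 4 arrays. Blue points are 5 enzyme genes and orange points 21 other acinar genes, labelled where the text names them; the upper left area, higher with LIF in the labelled KO and lower in wild type, holds 3 of the blue and 13 of the orange points.

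Among the regulators, Ptf1a, which encodes the DNA-binding subunit of PTF1, was not well above background on any array. Rbpjl, its partner subunit, was detected on all 4 and read 2.83 in labelled KO DSS+LIF, 2.66 in labelled KO DSS, −1.10 in WT DSS+LIF and 0.67 in WT DSS. Rbpjl was thus higher on both labelled KO arrays than on the WT arrays, with a LIF difference of 0.17 in the labelled KO. The transcription factor gene Gata4 differed by 1.58 with LIF in the labelled KO and by −2.80 in wild type, and the nuclear receptor gene Nr5a2 by 0.59 and −2.20. The acinar factor gene Bhlha15 was detected on every array but labelled KO DSS, and its LIF difference in wild type was 0.70.

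Marker lists of other tissues near the gut differed in their order over the arrays. The pancreatic duct and epithelium list had summed scaled signals of 83.2 in labelled KO DSS+LIF, 70.3 in labelled KO DSS, 22.6 in WT DSS+LIF and 50.9 in WT DSS, the same order as the enzyme genes. Krt19, Sox9 and Cftr were detected on all 4 arrays, and Muc1 and Spp1 were not well above background on any array. Of its 3 measured genes, 3 were at least 2-fold higher in the labelled KO under DSS and LIF (median 1.86). Among all genes 14.2% were higher there (median −0.45). With LIF in wild type 2 of the 3 were lower by that much (median −1.66), where 13.7% of all genes were (median 0.57). With LIF in the labelled KO 0 of the 3 differed by that much (median 0.62, against −0.01 for all genes). Of 10 islet genes, 4 were detected in labelled KO DSS+LIF, 5 in labelled KO DSS, 5 in WT DSS+LIF and 6 in WT DSS, with summed scaled signals of 3.29, 4.00, 7.01 and 4.39 in that order. The insulin gene Ins2 read −0.40 in labelled KO DSS+LIF, 0.31 in labelled KO DSS, 0.93 in WT DSS+LIF and −0.47 in WT DSS. Pdx1, Ppy, Nkx6-1 and G6pc2 were not well above background on any array. Adipocyte markers had summed scaled signals of 13.8 in labelled KO DSS+LIF, 22.4 in labelled KO DSS, 3.39 in WT DSS+LIF and 5.24 in WT DSS, with 7, 7, 3 and 6 of 8 genes detected. In the labelled KO, 0 of 7 measured adipocyte genes were at least 2-fold higher with LIF (median −0.48), where 3.22% of all genes were. Between genotypes under DSS 5 of 6 were higher (median 2.45), where 13.2% of all genes were (median 0.07). Plin1 was not well above background on any array.

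Epithelial markers were detected in full or nearly so. Of 13 intestinal epithelial genes 13 were detected in each array but WT DSS+LIF, which had 12, and the summed scaled signal was 193.0 in labelled KO DSS+LIF, 212.8 in labelled KO DSS, 379.5 in WT DSS+LIF and 175.2 in WT DSS. Their median LIF difference was 0.11 in the labelled KO and 0.68 in wild type, against −0.01 and 0.57 for all genes. The 4 Paneth cell genes with a probe were detected on all arrays, with summed scaled signals of 42.5 in labelled KO DSS+LIF, 59.2 in labelled KO DSS, 100.1 in WT DSS+LIF and 24.7 in WT DSS. With LIF in wild type 3 of the 4 were at least 2-fold higher (median 1.52), where 34.4% of all genes were (median 0.57). In the labelled KO the median of the Paneth cell genes was −0.53, against −0.01 for all genes. Leukocyte markers had summed scaled signals of 1184 in labelled KO DSS+LIF, 1760 in labelled KO DSS, 298.1 in WT DSS+LIF and 291.3 in WT DSS. Without S100a8, a gene of neutrophils and monocytes, the sums over the other 14 genes were 32.0, 40.2, 116.9 and 44.4 on those arrays in the same order. The whole list had median levels of 1.20 in labelled KO DSS+LIF and 1.14 in labelled KO DSS. They were 1.33 in WT DSS+LIF and 1.02 in WT DSS, close to each other, but single genes differed more. With LIF in wild type, 5 of 12 measured rose 2-fold or more and 0 fell that far (median 0.78, all genes 0.57). Of all genes 34.4% rose and 13.7% fell that far. In the labelled KO, 0 of 13 rose and 1 fell that far (median −0.25), where 3.22% of all genes rose and 3.07% fell. Between genotypes under DSS and LIF, 5 of 11 lay that far below wild type and 1 above (median −0.95, all genes −0.45). Of all genes 31.3% lay that far below and 14.2% above. Under DSS, 1 of 14 lay that far below and 4 above, where 6.94% of all genes lay below and 13.2% above. Hepatocyte and stromal markers had medians of −0.72 and −0.61 with LIF in the labelled KO. Their measured genes numbered 3 and 7. The part of other tissues, of brightness and of the scan in the levels of the enzyme genes was not tested.

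The genes most like the set over the 4 arrays were found by distance. Levels were centred on each gene's own mean, and the root mean square distance to the mean profile of the 5 enzyme genes was taken over 8034 other genes measured on all 4 arrays. The mean profile was 1.71 in labelled KO DSS+LIF, 0.14 in labelled KO DSS, −1.03 in WT DSS+LIF and −0.82 in WT DSS. The nearest 10 were Acod1, Gm10334, Clu, Fam3b, Slc1a7, Ube2s, Igsf5, Spata31d1a, Fcgbp and Try4, at distances of 0.33 to 0.45 log2 units, against a median of 1.25 for all genes and 0.48 to 0.68 for the enzyme genes themselves. Gm10334 is the gene beside Prss1. Amy1 was 11th, Amy2a5 16th and Try5 20th in that order, while Spink1 was 7594th. With 4 arrays the likeness is a description of these arrays.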

How the data were processed

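Spot intensity values came from Agilent one-colour (Cy3) scanner files that the authors made with Feature Extraction, which is version 11.0.1.1 per the file headers, whereas the submitters' processing notes name 9.1; the design's genomic build is mm9 per the file headers. The deposited processed signal is background-subtracted intensity. The authors also deposited a table of log2 values, whose columns share a mean (4.51) and an upper quartile (5.85) and have medians of 3.31, 3.31, 2.54 and 3.31 (labelled KO DSS+LIF, labelled KO DSS, WT DSS+LIF, WT DSS). They correlated at 0.969 to 0.991 with log2 scanner signals; higher is brighter and genes were not centred, the lowest value of each column (2.36, 2.41, 2.54 and 2.32) filled 36.2%, 41.7%, 51.2% and 27.0% of its entries, so the WT DSS+LIF median is that floor, and the normalization is not known here. That table served as an alternative.

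Computed here (Python 3.11.15, numpy 2.4.6, pandas 2.3.3, R 4.3.3, limma 3.58.1): outlier spots were left out, log2 processed signals had the array's 75th percentile subtracted, and spots of a probe were averaged; a probe was detected when at least 50% of its spots were well above background. No non-control spot was saturated. Accessions named 27234 probes (69.1%) through a RefSeq table of GRCm38.p6, used for names and neighbours; 9 of 10 genes had a promoter entry. The probe with the highest mean level stood for a gene. Normexp used median signals, since the files hold no mean signal. The code was tested on simulated data. The enzyme genes and all marker lists were chosen with earlier results of these data known. Named genes were all members, the listed acinar genes at least 2-fold different with LIF in the labelled KO or in the top 10% of an array (22 genes, of which 1 is not reported here), and the 10 genes nearest the mean profile. Regulators and neighbouring tissues' genes outside this rule were named after their values were seen. No replicate exists, so no test was run.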

Additional observations from a re-analysis of the deposited data

Results flagged for a closer look

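Pnlip, Cpb1 and Cpa1 were marked because the array with LIF lay above its DSS array in the labelled KO and under it in wild type. The LIF difference in the labelled KO minus that in wild type was 3.99 for Pnlip, 3.90 for Cpb1 and 1.43 for Cpa1 on the log2 scale. For Cpa1 the wild type difference was −0.12, close to the spread of replicate spots (0.099). With normexp without an offset Cpa1 had the same sign in both genotypes, and its value was 0.32. The difference between genotypes was not tested, and it rests on 1 array per group, with WT DSS+LIF being the array that stood apart.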

How the results depend on the processing

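The members at least 2-fold higher were counted under 10 alternatives, 9 planned and 1 (normexp with offset 50, then quantile scaling) chosen after seeing the data. Over the 4 comparisons, 31 such counts stayed within 1.5 times the reported one and 9 did not. Part of the 31 could not change. Keeping outlier spots left every member as it was, since each member probe has 1 spot and none had been left out. Requiring detection on all 4 arrays kept the same 5 genes for LIF in wild type and for the genotypes under DSS and LIF. The mean over probes could alter only Prss1 and Clps. For LIF in the labelled KO the count of 5 became 0 with normexp at an offset of 50, 0 with normexp without an offset and 9 (of 10) with no background filter. Of all genes, 0.0613%, 4.41% and 12.0% were at least 2-fold higher in those settings, in place of 3.22%. For LIF in wild type the count of 2 became 0 with either normexp, 1 with the mean over probes and 1 with normexp followed by quantile scaling. There 8.85% of all genes were higher with normexp at an offset of 50 and 26.7% without an offset, in place of 34.4%. The shares were 30.7% with the mean over probes and 10.4% with normexp followed by quantile scaling. For the genotypes under DSS and LIF the count of 5 became 3 with normexp without an offset and 10 (of 10) with no background filter. Of all genes, 5.45% and 16.9% were higher in those settings, in place of 14.2%. Without that filter, genes at the background level enter. Among values of at least 2-fold, the sign turned for Cpa1 with LIF in the labelled KO (−0.18 with normexp without an offset) and for Clps with LIF in wild type (−0.43 with the mean over probes); the smaller LIF difference of Clps in the labelled KO turned to −0.30 and −0.78 with normexp with and without the offset. Normexp also changed the scaling percentile. For LIF in the labelled KO, the members' median minus that of all genes was 1.83 in the main setting. It was 0.87 with normexp at an offset of 50 and 0.71 without an offset. The cause of the changes was not tested for any setting. The members' median kept its sign in each of the 4 comparisons under all 10 alternatives, but not always relative to all genes. For the genotypes under DSS, the members' median minus that of all genes was 0.99 in the main setting. It was −0.24 with no background filter. The members' median itself ran over 0.42 to 1.83 for LIF in the labelled KO and −0.92 to −0.12 for LIF in wild type. It ran over 0.01 to 1.61 for the genotypes under DSS and 1.41 to 3.54 under DSS and LIF. Signal over background limits the elastases and Pnliprp1. No paired analysis was possible because each group has 1 array, and for that reason no scan block and no array left out could be run.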
